A study of Mus musculus with 16 samples.

Results

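Liver expression of 9 genes of peroxisomal fatty acid oxidation was compared between mice fed a maple syrup extract (MSE) and mice fed the plain diet. The genes were taken by name from the array annotation, as those encoding the peroxisomal importer, oxidase, bifunctional, thiolase and auxiliary enzymes of the pathway. All 9 were measured, among 18194 genes in all, and 15 probe sets name one of them alone. The MSE group held 8 male KK-Ay mice, an obese diabetic strain carrying the yellow agouti allele, given 0.1% MSE in a purified diet for 43 days. The normal group held 8 male KK-Ay mice of the same age, 11 weeks, pair-fed that purified diet with no extract. Both groups were fasted for 16 h before liver was taken, so every value is of fasted liver. No lean or healthy strain was analysed here, and each array holds whole liver RNA of 1 mouse, in which fewer cells of a type and less RNA per cell cannot be told apart. The comparison asks what the extract did to liver gene expression in this diabetes model.

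Peroxisomes shorten fatty acids that mitochondria handle poorly, above all very long chain, branched and dicarboxylic acids and the side chain of bile acid precursors. An acyl-CoA enters through an ABC half-transporter, is oxidised by an acyl-CoA oxidase that makes hydrogen peroxide, is hydrated and oxidised again by a bifunctional enzyme, and is cut by a thiolase. In rodent liver the nuclear receptor PPAR alpha controls many of these genes, and fasting and fibrate drugs raise them.

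The deposited values are on a log2-like scale and vary very little between mice. Across the 16 mice a typical probe set had an SD of 4.98e-06 log2 units (median), far too little to be read as transcript folds, so no fold change is given. Values are given as the deviation of a mouse from the gene's mean over 16 mice, in millionths of a log2 unit, and differences as MSE minus normal, in SDs within diets. Setting each MSE mouse against each normal mouse gives 64 pairs, and the count with the higher value in the MSE mouse is given too. The array of MSE replicate 6 stood apart. Its median deviated from the average array by -103 millionths, and those of the other 15 arrays by -7.85 to 35.6. The MSE minus normal difference in array medians was -13.1 millionths with that array and 0.689 without it. Without it 7 of the 9 genes had a higher mean with MSE and 3 an unadjusted p under 0.05, the same counts as with all mice. All 9 measured hepatocyte markers lay above the median probe set, as did all 9 peroxisomal oxidation genes.

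No peroxisomal oxidation gene passed the test, and the 3 with the smallest p were Acaa1b, Acaa1a and Ehhadh, each with the higher mean in the livers of MSE mice. Acaa1b and Acaa1a encode the peroxisomal 3-ketoacyl-CoA thiolases, and Ehhadh encodes the L-bifunctional enzyme. Their MSE means lay 1.85, 1.37 and 1.24 SDs above the normal means. The other 6 genes lay between 0.45 SDs below and 0.52 SDs above (differences of -0.45 to 0.52). Of the 9 genes, 7 had a higher mean with MSE, against 48.3% of all genes, and 3 were higher at an unadjusted limma p under 0.05, against 2.59% of all genes. Lower at that mark were 0 of the 9, against 4.07% of all genes. After Benjamini-Hochberg adjustment over all genes limma called 0 of the 9, and 0.0% of all genes, with adjusted p values of the 9 between 0.461 and 0.999. The median of the 9 differences was 0.41 SDs and that of all genes -0.02 SDs. Among genes above the median level, where all 9 lie, 44.2% had a higher mean with MSE and 2.92% were higher at an unadjusted p under 0.05. After each array was centred on its median, 8 of the 9 genes had the higher mean, against 92.6% of all genes. Of the 9, 2 then had an unadjusted limma p under 0.05. Centring takes the median deviation of MSE replicate 6, -103 millionths, out of every gene of that mouse. These genes were chosen with earlier results of the same mice known, so the counts are a description.

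**Figure D1:**
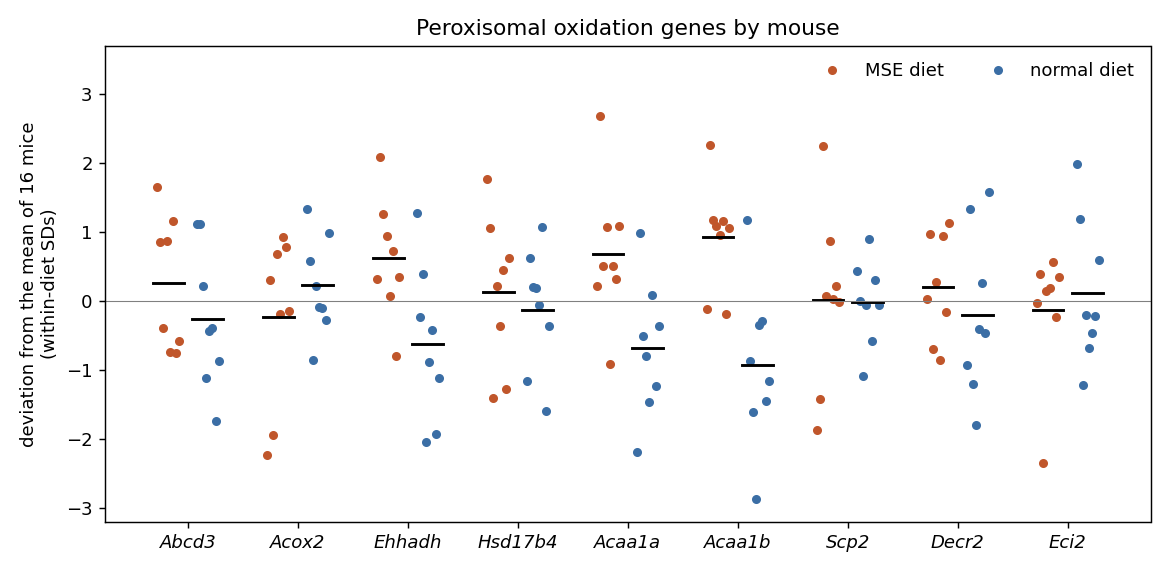
Deviation of each mouse from the gene's mean over 16 mice, in SDs within diets (vertical axis), for 9 peroxisomal oxidation genes (horizontal axis). Points are mice, orange for MSE and blue for normal diet, and black bars are group means of 8 mice; the means stand furthest apart for Acaa1b, by 1.85 SDs, and the diets overlap in every gene.

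The promoters of the 3 genes with the smallest p are shown, with short matches near the gene start. Each runs from 250 bases before to 50 bases after the gene start, from RefSeq on GRCm38.p6, 5′ to 3′ on the gene's strand. Capitals mark CCAAT and its reverse complement ATTGG, the box bound by the factor NF-Y.
Acaa1b (chr9:119157044-119157343, minus strand): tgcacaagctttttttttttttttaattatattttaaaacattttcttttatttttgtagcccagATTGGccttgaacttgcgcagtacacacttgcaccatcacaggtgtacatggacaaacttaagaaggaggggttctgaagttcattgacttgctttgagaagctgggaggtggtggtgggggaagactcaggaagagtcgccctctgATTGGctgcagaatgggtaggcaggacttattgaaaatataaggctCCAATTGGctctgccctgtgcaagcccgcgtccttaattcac
Acaa1a (chr9:119341044-119341343, plus strand): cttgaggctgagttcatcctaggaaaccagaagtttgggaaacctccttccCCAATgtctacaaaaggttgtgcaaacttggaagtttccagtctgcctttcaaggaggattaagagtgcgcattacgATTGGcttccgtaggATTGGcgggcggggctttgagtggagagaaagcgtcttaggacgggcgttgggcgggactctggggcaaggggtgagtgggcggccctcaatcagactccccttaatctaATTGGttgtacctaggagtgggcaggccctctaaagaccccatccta
Ehhadh (chr16:21787785-21788084, minus strand): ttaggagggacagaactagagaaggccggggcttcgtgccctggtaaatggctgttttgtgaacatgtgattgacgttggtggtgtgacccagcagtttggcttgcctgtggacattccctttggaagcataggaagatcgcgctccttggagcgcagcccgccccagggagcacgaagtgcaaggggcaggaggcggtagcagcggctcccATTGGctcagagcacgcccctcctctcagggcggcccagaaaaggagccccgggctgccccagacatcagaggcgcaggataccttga
Both Acaa1b and Ehhadh hold ATTGG with its first base 38 bases before the gene start (position -38). Acaa1b holds 4 matches, of which the last overlaps the one before it, and Acaa1a holds 4, beginning at -199, -122, -107 and 4. Promoter entries were found for 8 of the 9 genes, 10 entries in all, and that of Hsd17b4 was not used here. CCAAT was present on either strand in 5 of the 10, against 37.4% of 32851 promoters of the same length. The half-site AGGTCA, of which PPAR alpha binds a direct repeat with 1 base between, was present on either strand in 1 of the 10, that of Scp2, against 16.3% of all promoters. The direct repeat itself, with up to 2 mismatches, was matched in 1 of the 10, a promoter of Acox2, against 3.86% of all. These are matches of letters in a window and not sites. Sequence outside the window was not searched, so control of these genes by PPAR alpha was not tested.

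Import into the peroxisome was represented by Abcd3, the ABC half-transporter also known as PMP70, which brings long, branched and dicarboxylic acyl-CoAs and bile acid intermediates across the membrane. Its deviations in MSE mice ran from -3.12 to 6.84 millionths with a median of 0.964, against -7.17 to 4.64 with a median of -1.68 in normal mice. The 2 MSE mice above every normal mouse were replicates 1 and 6, and the ranges overlapped over most of their length. The difference was 0.52 SDs (2.14 ± 2.04 millionths, SE), with the MSE mouse higher in 41 of 64 pairs (limma p 0.312, adjusted p 0.934). Its second probe set differed by 0.39 SDs in the same direction. Abcd2, a related importer of very long chain acyl-CoAs, was at -0.04 SDs and Abcd4, a lysosomal relative that handles cobalamin, at -0.33 SDs.

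The first oxidation step was represented by Acox2, the oxidase for branched fatty acids and for the side chain of bile acid intermediates. MSE mice ran from -134.9 to 55.9 millionths with a median of 4.74, against -51.7 to 80.5 with a median of 3.88 in normal mice. MSE replicates 1 and 3 lay below every normal mouse, at -134.9 and -117.4 millionths, and the other 6 MSE mice lay within the normal range. The difference was -0.45 SDs, with the MSE mouse higher in 27 of 64 pairs (limma adjusted p 0.943), the most negative of the 9 genes. Acox3, a related branched-chain oxidase, was at -0.02 SDs.

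The next steps, hydration and dehydrogenation, are carried out by a pair of bifunctional enzymes that differ in the stereochemistry of their intermediate. Ehhadh, the L-specific enzyme, which takes part in dicarboxylic acid oxidation and is a classic PPAR alpha target, ran from -672.1 to 1755 millionths in MSE mice with a median of 449, against -1716 to 1070 with a median of -547 in normal mice. In 7 of 8 MSE mice and 2 of 8 normal mice the value lay above the gene's mean. MSE replicate 7 was the low MSE mouse, normal replicates 1 and 3 were the high normal mice, and 4 normal mice lay below every MSE mouse. The difference was 1.24 SDs (1044 ± 410 millionths, SE), with the MSE mouse higher in 51 of 64 pairs (limma p 0.0225, adjusted p 0.685). Quantile normalization gave -0.30 SDs for Ehhadh and the same value for Acox2, and left 5 of the 9 genes with no spread. The SD within diets of Ehhadh as deposited was larger than that of 98.8% of genes (percentile 98.8), the widest spread of the 9.

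Hsd17b4, the D-specific bifunctional enzyme, handles straight and branched chains and is required for bile acid side chain cleavage. It ran from -21.4 to 27.1 millionths in MSE mice with a median of 5.08, against -24.4 to 16.4 with a median of 1.04 in normal mice. The diets overlapped almost wholly, with a difference of 0.27 SDs and the MSE mouse higher in 39 of 64 pairs (limma adjusted p 0.973). Its second probe set differed by 0.31 SDs. Whether Ehhadh and Hsd17b4 differed from each other in response was not tested.

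The last step is thiolytic cleavage, by the products of Acaa1b, Acaa1a and Scp2. Acaa1b, which in mice is the thiolase most strongly raised by PPAR alpha agonists, ran from -1.74 to 20.3 millionths in MSE mice with a median of 9.65, against -25.7 to 10.5 with a median of -9.09 in normal mice. All 8 MSE mice lay above the normal median, and 7 of 8 normal mice lay below every MSE mouse. The exception was normal replicate 1, at 10.5 millionths. The difference was 1.85 SDs (16.6 ± 4.37 millionths, SE), with the MSE mouse higher in 58 of 64 pairs (limma p 0.0018, adjusted p 0.461). Without normal replicate 1 it was 2.59 SDs, which did not pass either (limma adjusted p 0.227). After centring on array medians the difference was 0.96 SDs (limma adjusted p 0.655). That step takes out the array median deviation of MSE replicate 6, -103 millionths, where the SD within diets of Acaa1b was 8.95 millionths.

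Acaa1a, also a thiolase gene, ran from -88.3 to 258.6 millionths in MSE mice with a median of 49.1, against -211.4 to 95.8 with a median of -63.1 in normal mice. MSE replicate 5 was the one MSE mouse below the gene's mean, and normal replicates 2 and 6 were the normal mice above it. The difference was 1.37 SDs (132 ± 47.0 millionths, SE), with the MSE mouse higher in 55 of 64 pairs (limma p 0.0133, adjusted p 0.629). The Acaa1a and Acaa1b transcripts are so alike that 2 further probe sets name both, and some signal of either gene may come from the other. Those 2 differed by 1.56 and 1.48 SDs, and the second Acaa1a probe set by 1.34 SDs. All 5 probe sets naming Acaa1a, Acaa1b or both thus had the higher mean with MSE (1.34 to 1.85 SDs). As they may share signal, they are not 5 separate results.

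**Figure D2:**
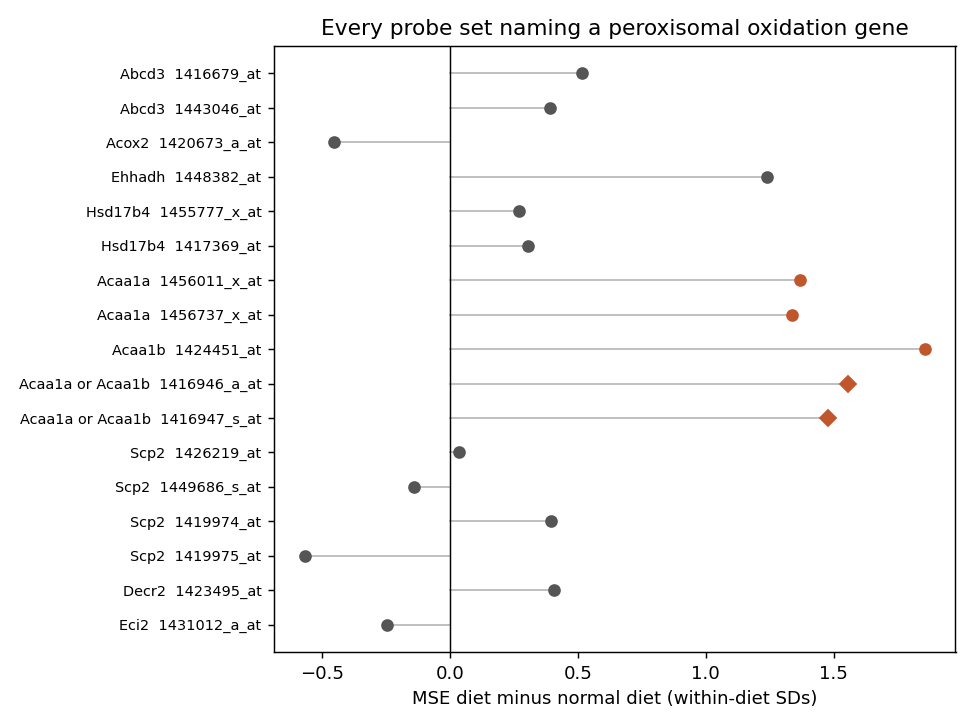
MSE minus normal difference in SDs within diets (horizontal axis) for each of the 15 probe sets naming a peroxisomal oxidation gene alone and the 2 naming both Acaa1a and Acaa1b (diamonds), down the page in pathway order. Probe sets naming Acaa1a, Acaa1b or both, in orange, lie between 1.34 and 1.85 SDs, and the 4 Scp2 probe sets lie on both sides of 0.

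Scp2 encodes both the thiolase SCPx, for branched chains and bile acid intermediates, and sterol carrier protein 2. It ran from -0.797 to 0.963 millionths in MSE mice with a median of 0.0231, against -0.467 to 0.383 with a median of -0.0119 in normal mice. The normal range lay inside the MSE range, and the difference was 0.04 SDs, with the MSE mouse higher in 34 of 64 pairs (limma adjusted p 0.999). Its SD within diets was among the smallest measured, at percentile 0.275 of all genes, in the probe set with its highest mean. The other 3 Scp2 probe sets differed by -0.14, 0.39 and -0.56 SDs, so Scp2 had no common direction. Of all 15 probe sets naming one of the genes alone, 11 had a higher and 4 a lower mean with MSE, against 48.5% higher among all such probe sets.

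The auxiliary enzymes Decr2 and Eci2 prepare unsaturated fatty acids for the spiral. Decr2, the peroxisomal 2,4-dienoyl-CoA reductase, ran from -45.5 to 60.0 millionths in MSE mice with a median of 8.12, against -95.6 to 84.3 with a median of -23.1 in normal mice. The MSE range lay inside the normal range, and the difference was 0.41 SDs, with the MSE mouse higher in 40 of 64 pairs (limma adjusted p 0.944). Eci2, an enoyl-CoA delta isomerase, ran from -34.2 to 8.17 millionths in MSE mice with a median of 2.40, against -17.7 to 28.9 with a median of -3.04 in normal mice. MSE replicate 3 was far below the other MSE mice, at -34.2 millionths. The mean and the median of Eci2 went opposite ways, with a difference in means of -0.25 SDs and the MSE mouse higher in 33 of 64 pairs (limma adjusted p 0.978). Eci2 turned to 0.09 SDs without MSE replicate 3, to 0.02 SDs without normal replicate 1 and to 0.26 SDs after centring on array medians.

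The authors' deposited table gives each probe set a false discovery rate estimate for either direction, from a test not given in the sources used here. In the authors' deposited table the rate for higher expression with MSE was 0 for Ehhadh, 1.82e-04 for the leading Acaa1a probe set and 1.24e-04 for one that names both thiolases. The second probe set of each kind had 0.327 and 0.0578 in the authors' deposited table. In the authors' deposited table it was 0.0953 for Acaa1b and 0.144 for Decr2. Under 0.05 the authors' deposited table has 2.1% of probe sets naming 1 gene for higher and 3.09% for lower expression. Scp2 appears on both sides in the authors' deposited table, with 0.0284 for higher in one probe set and 0.0245 for lower in another.

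Mitochondria hold a parallel set of enzymes, which split fatty acids of common chain length. Of 18 measured genes listed for mitochondrial beta oxidation, carnitine shuttle and electron transfer genes included, 16 had a higher mean with MSE, against 48.3% of all genes. At an unadjusted limma p under 0.05, 8 were higher, against 2.59% of all genes, with Cpt1a, Cpt2 and Etfdh among the 8. The median of the 18 was 0.72 SDs. Of the 9 peroxisomal genes these counts were 7 and 3, with a median of 0.41 SDs. Enzymes that catalyse like steps in both organelles were set against each other by taking, in each mouse, the peroxisomal minus the mitochondrial z value (each gene scaled to its SD over 16 mice). The 6 pairs were chosen with the values known, and exact two-sided permutation tests over 12870 regroupings were adjusted over the 6.

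The widest gap of the 6 was between the isomerases, a pair picked with that gap in view, so its test is no independent evidence. Eci1, the mitochondrial enzyme, had the higher mean with MSE by 2.07 SDs (59 of 64 pairs, limma adjusted p 0.378), and Eci2 was at -0.25 SDs. The z value of Eci2 minus that of Eci1 averaged -0.84 ± 1.38 in MSE mice and 0.84 ± 1.05 in normal mice (SD, n = 8 each), a difference of -1.69 (exact permutation p 0.00218, adjusted p 0.0131). It lay between -1.90 and -1.30 when any 1 mouse was left out, with exact p values of 1.55e-04 to 0.0113, and was -0.886 after centring on array medians (exact p 0.00451). The reductases Decr2 and Decr1, at 0.41 and 1.74 SDs, gave a difference of -0.907 (exact p 0.121, adjusted p 0.288), within the spread between mice. Acaa1b and Acaa1a against the mitochondrial thiolase Acaa2, at 0.41 SDs, gave 0.947 and 0.727 (exact adjusted p 0.288 and 0.376). Ehhadh and Hsd17b4 against Hadha, the alpha subunit of the trifunctional protein at 1.10 SDs, gave 0.0874 and -0.705 (exact adjusted p 0.884 and 0.387).

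Other genes of the peroxisome gave no call, as limma called 0 genes in all. Among 24 measured genes listed for other peroxisomal oxidation and acyl-CoA handling, Abcd4 included, 16 had a higher mean with MSE (median 0.37 SDs). Of the 24, 3 were higher and 1 lower at an unadjusted limma p under 0.05. Of all genes 48.3% had a higher mean, and 2.59% were higher and 4.07% lower at that mark. Crot, the carnitine octanoyltransferase that exports shortened chains, was at 1.37 SDs (52 of 64 pairs), the dehydrogenase-like gene Hsdl2 at 1.25 SDs and the thioesterase gene Acot8 at 1.16 SDs. Slc25a17, a peroxisomal carrier of CoA and adenine nucleotides, was at -1.23 SDs, with the MSE mouse higher in 14 of 64 pairs. Of 16 biogenesis genes 6 had a higher mean (median -0.09 SDs), and only the membrane channel gene Pxmp2, at 1.19 SDs, had an unadjusted p under 0.05. Its relative Pxmp4 was at 0.94 SDs, the import receptor gene Pex5 at 0.45 SDs, the docking gene Pex13 at -0.98 SDs and the membrane assembly gene Pex3 at -0.49 SDs.

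Genes of peroxisomal oxidases and peroxide removal, with some others listed beside them, split. Of the 11, 5 had a higher mean (median -0.02 SDs), against 48.3% of all genes. Ephx2, the soluble epoxide hydrolase, was at 2.27 SDs and Agxt, the glyoxylate aminotransferase, at 1.55 SDs, and Idh1, an isocitrate dehydrogenase of cytosol and peroxisome, was at -1.67 SDs. Only those 3 had an unadjusted limma p under 0.05, and none of them is an oxidase or removes peroxide. Catalase (Cat), which removes the hydrogen peroxide made by the oxidases, was at 0.42 SDs. Of 5 ether lipid synthesis genes 3 had a higher mean and 0 an unadjusted limma p under 0.05, with the acyltransferase gene Gnpat at 0.84 SDs. Of 9 genes of PPAR alpha, its partners and coactivators 4 had a higher mean, 0 had an unadjusted limma p under 0.05, and Hnf4a was at -0.55 SDs and Ppargc1a at -0.52 SDs.

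**Figure D3:**
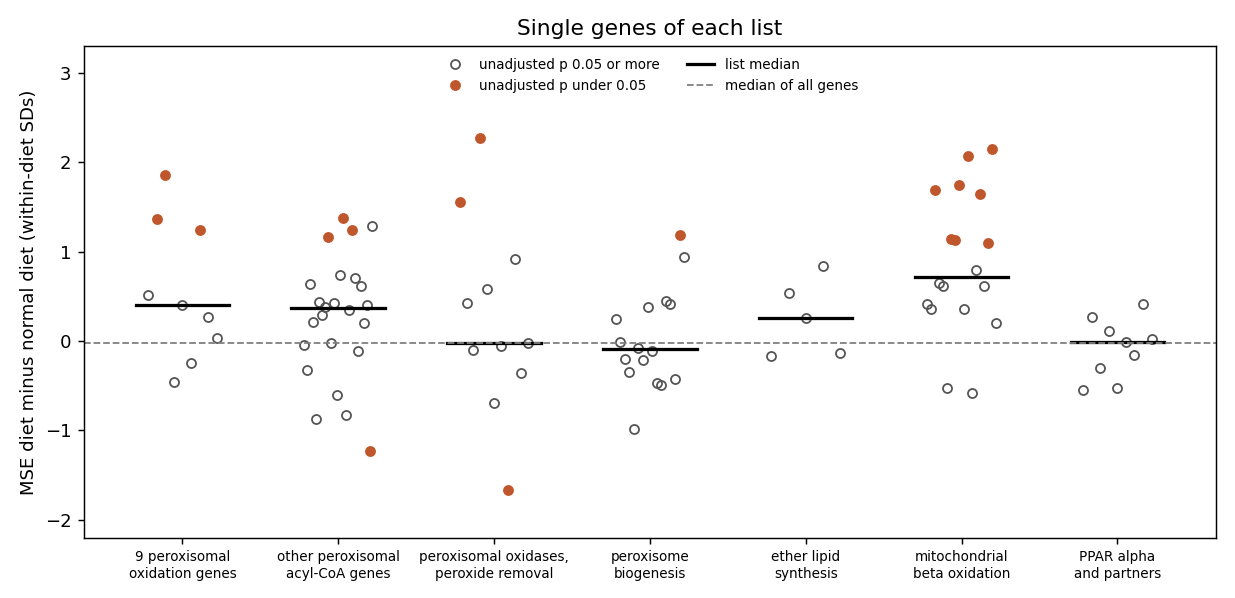
MSE minus normal difference in SDs within diets (vertical axis) for single genes of 7 lists (horizontal axis). Filled points have an unadjusted limma p under 0.05, bars are list medians and the dashed line is the median of all 18194 genes, -0.02 SDs; the medians are 0.41 SDs for the peroxisomal oxidation genes and 0.72 SDs for mitochondrial beta oxidation.

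Among mice of the same diet some of the 9 genes varied together and others did not. After the mean of each diet was removed, the median Pearson r of the 36 pairs of genes over 16 mice was 0.184, against 0.002 for all pairs of measured genes, whose upper quartile was 0.215. Centring on array medians raised that of the 36 pairs to 0.666, and quantile normalization gave 0.637 over the 6 pairs it left. Of the 36 pairs 28 had an r above 0, and 3 passed by both Pearson and Spearman correlation with 100000 permutations within diets, adjusted over the 36. An array-wide shift need not be shared by all genes of a mouse. In MSE replicate 6 the array median deviated by -103 millionths, and the 9 genes by 0.0131 (Scp2) to 609 (Ehhadh). Centring takes that median deviation out of every gene of that mouse. With diet means removed, the r of the 9 genes with the array median over 16 mice ran from -0.333 (Acox2) to 0.229 (Scp2). With the array mean it ran from -0.612 (Acaa1b) to 0.176 (Hsd17b4), with Scp2 at -0.493 and Acox2 at -0.481, given as a description.

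Ehhadh and Acaa1b varied together. Their r was 0.777 (permutation p 0.00124, adjusted 0.0239) and rho 0.721 (permutation p 0.00391, adjusted 0.0469), with r 0.861 in MSE mice and 0.737 in normal mice. Without the 2 mice farthest from the median of Ehhadh r was 0.572. Acox2 and Eci2 also varied together, with r 0.700 (permutation p 0.00133, adjusted 0.0239) and rho 0.750 (permutation p 9.5e-04, adjusted 0.0171), and r 0.770 without the 2 farthest mice. MSE replicate 3 was low in both genes. Hsd17b4 and Scp2 ran opposite ways, with r -0.747 (permutation p 0.002, adjusted 0.024) and rho -0.818 (permutation p 4.2e-04, adjusted 0.0151). Their r was -0.693 without the 2 farthest mice, -0.87 in MSE mice and -0.5 in normal mice. The Scp2 probe set used had an SD within diets of only 0.427 millionths, at percentile 0.275 of all genes. Other Scp2 probe sets were not correlated here. Ehhadh and Abcd3 had r 0.687 (permutation p 0.00525, adjusted 0.0473) and rho 0.656 (permutation p 0.00907, adjusted 0.0816). The thiolase genes Acaa1a and Acaa1b, by contrast, had an r of 0.0595 and a rho of 0.147 (permutation p 0.834 and 0.601, adjusted 0.911 and 0.726), with r 0.636 in MSE mice and -0.336 in normal mice. Whether that r differed between diets was not tested.

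**Figure D4:**
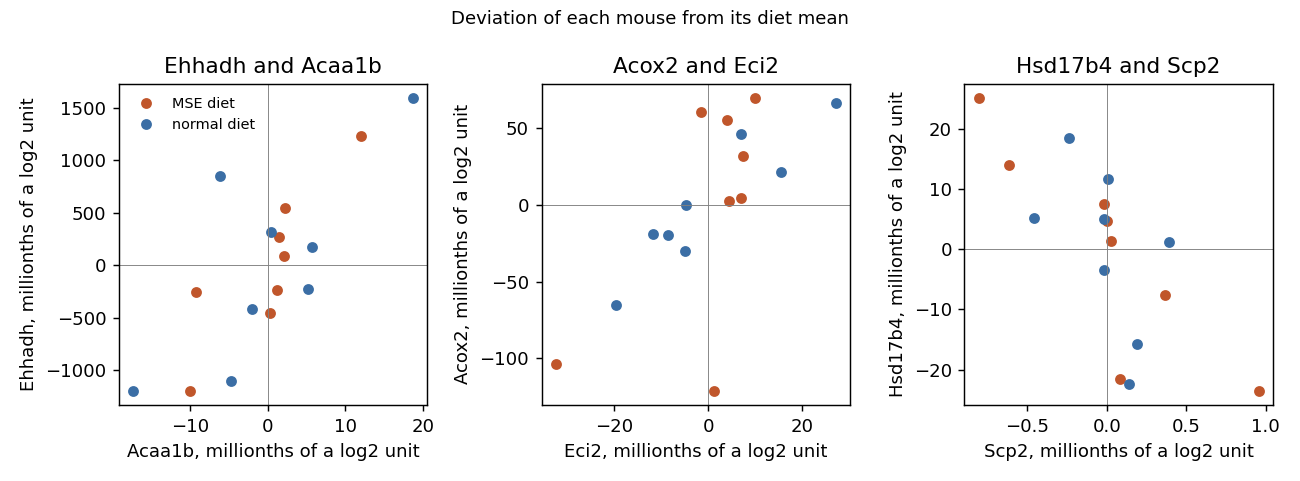
Deviation of each mouse from its diet mean, in millionths of a log2 unit on both axes, for the 3 pairs of genes that passed by both correlations. Points are mice, orange for MSE and blue for normal diet; r over 16 mice is 0.777 for Ehhadh with Acaa1b, 0.700 for Acox2 with Eci2 and -0.747 for Hsd17b4 with Scp2.

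Among the 18185 other genes, the 5 with the highest mean r with the 9 genes over the same 16 mice were Slc43a3, Dcaf6, Acot12, Samm50 and Grasp, with mean r between 0.412 and 0.425. Acot12, a cytosolic acetyl-CoA thioesterase of liver, had r 0.666 with Acaa1a and 0.647 with Decr2. Slc43a3, a purine base transporter, had r 0.755 with Eci2, and Samm50, of the mitochondrial outer membrane, r 0.670 with Acox2. None had an unadjusted limma p under 0.05 between diets, and their differences ran from -0.40 to 0.83 SDs.

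Markers of other liver cells were counted in the same way. Of all genes 48.3% had a higher mean with MSE. At an unadjusted limma p under 0.05, 2.59% of all genes were higher and 4.07% lower. Macrophage markers had a higher mean with MSE in 1 of 10 genes, with summed log2 levels of 76.2362 to 76.2380 in MSE mice and 76.2365 to 76.2381 in normal mice, and 0 had an unadjusted limma p under 0.05. Neutrophil markers had a higher mean in 1 of 8, with sums of 49.0300 to 49.0302 in MSE mice and 49.0300 to 49.0304 in normal mice. Sinusoidal endothelial markers were higher in 7 of 10, stellate markers in 8 of 10, adipocyte markers in 4 of 6 and bile duct markers in 5 of 6, and hepatocyte markers in 6 of 9. Of these, 2 sinusoidal endothelial, 1 adipocyte and 1 bile duct marker were higher, and 1 sinusoidal endothelial and 1 hepatocyte marker lower, at an unadjusted p under 0.05. The part of these cells in the values above was not tested.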

How the data were processed

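Liver RNA of 16 mice was hybridised to 3′ arrays, 1 mouse an array. The authors deposited log2-like expression values of 45101 probe sets; base 2 is assumed from their range of 5.05 to 14.6. How they were summarized and normalized is not given in the sources used here. Upstream work used R 3.2.2, per the submitters' processing notes. A second table that the authors deposited holds rate estimates for either direction, treated as scores since some exceed 1. Values were used as deposited, and arrays give no counts, so the number of mice limits the precision.

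Of the probe sets 34958 named 1 gene in the platform annotation, and the one with the highest mean stood for each of 18194 genes. The test between diets was limma's (version 3.58.1, under R 4.3.3; lmFit and eBayes, two-sided, no covariate), with Benjamini-Hochberg adjustment over all genes and a threshold of 0.05. Permutation tests used Python 3.11.15 with SciPy 1.17.1. Sample titles number biological replicates, with no batch label. All genes, lists and tests were chosen with earlier results of these data known. Named were the 9 genes, up to 4 genes of each other list by smallest p, some further members of those lists chosen after their values were seen, and the 5 genes most alike. On data simulated with the spreads of these 18194 genes, shifts of 1, 2 and 3 SDs were recovered in 1.19%, 29.9% and 82.7% of altered genes. The settings varied were normalization (quantile, or centring by array median), the genes tested (those above the median level), the variance model (trended and robust, or weighted arrays), a replicate block, how probe sets were joined, the threshold (0.1) and each mouse in turn.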

Additional observations from a re-analysis of the deposited data

Results flagged for a closer look

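Among 20 groups of 8 values tested (9 genes and the array median, in each diet), 2 held a mouse that lay far from the other 7 by Dixon's criterion, a mark that about 1 in 20 groups pass by chance. Eci2 in MSE replicate 3 lay low, with a gap to the nearest mouse of 0.73 of the group's range, and the difference in Eci2 was 0.09 SDs without that mouse, against -0.25 SDs with it. The array median of MSE replicate 6 lay low, with a gap of 0.722 of the range. The differences of 4 of the 9 genes were no larger than the difference of -13.1 millionths in array medians that includes that array, and those of the other 5 were larger.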

How the results depend on the processing

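No setting called any of the 9 genes, with adjusted p values from 0.196 (Acaa1a, replicate block) upward. Acaa1b, Acaa1a, Abcd3, Hsd17b4 and Decr2 kept a higher mean with MSE in every setting that gave a value. Quantile normalization left 5 of the 9 genes with no spread at all, so that it gave no value for them and no count of higher genes. It gave Ehhadh and Acox2 the same difference, -0.30 SDs, where Ehhadh was at 1.24 SDs as deposited. It left 1 of the 9 at an unadjusted p under 0.05 and called Bmp7, Gnpda2 and Gp1bb, 3 genes. The cause was not tested. Limma called 1 gene among those above the median level, 1 with the replicate block and 1 at an adjusted p under 0.1, against 0. Unadjusted p values under 0.05 numbered 1212 genes, 230 after centring, 795 above the median level and 2283 over all probe sets, where other numbers of features were tested. Centring turned Eci2 to 0.26 SDs, took Acaa1b to 0.96, left 2 of the 9 at an unadjusted p under 0.05, gave 8 of the 9 genes the higher mean, where 92.6% of all genes then had it, and raised the median r between the 9 genes to 0.666. After quantile normalization that median was 0.637, over the 6 pairs left. Centring shifts all genes of a mouse alike, those of MSE replicate 6 by the most, as its array median deviated by -103 millionths.

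Leaving out 1 mouse gave 0 to 2 genes called, 1020 to 1394 genes at an unadjusted p under 0.05, 6 to 8 of the 9 genes higher and always 3 at that mark. The differences then ran from 1.73 to 2.59 SDs for Acaa1b, 1.23 to 1.77 for Acaa1a, 1.09 to 1.73 for Ehhadh, 0.33 to 0.75 for Abcd3, 0.20 to 0.74 for Decr2, 0.04 to 0.53 for Hsd17b4, -0.63 to -0.20 for Acox2, -0.46 to 0.09 for Eci2 and -0.35 to 0.35 for Scp2. Eci2 turned without MSE replicate 3 (0.0912) or normal replicate 1 (0.0238), and Scp2 without MSE replicate 3 (-0.352) or 5 (-0.0834) or normal replicate 3 (-0.117) or 6 (-0.0408).

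Same-numbered mice of the 2 diets correlated above 0.1 in 5 of 8 pairs and below it in the other 3 (range of r -0.03 to 0.22). Of the 8 MSE mice 5 correlated best with their own number, a hint of pairing. The normal mice were pair-fed, but no label states which mice were partners, and mice of the same number need not be. For want of such a label the numbers were not used to pair mice, so the tests above take no account of any pairing. With the replicate block Acaa1a was at 2.88 SDs, against 1.37 without it, Acaa1b at 1.65 and Ehhadh at 1.52. There the SD is the one left after replicate means are also taken out, and not the SD within diets. The block leaves the differences in means as they were.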
